A study of Mus musculus with 12 samples.

Results

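The genes described here are the 19 mouse Wnt ligands, 12 receptors of these ligands (the 10 Frizzled genes with the co-receptor genes Lrp5 and Lrp6), 8 effectors that carry the signal inside the cell (Lef1, Tcf7, Tcf7l1, Tcf7l2, Ctnnb1, Apc, Axin1 and Axin2) and the dickkopf-family gene Dkk3. They make 40 of 21887 protein-coding genes. They were listed as pathway members by name, with earlier results of these data known. A Zic1/2 peak was assigned to a gene where it overlapped the gene span or the 5 kb on either side of it (mm10), so assignment is by position and names no regulated gene. Binding of Zic1 and Zic2, zinc-finger transcription factors of the granule cell lineage, was mapped by CUT&RUN. There, an antibody (here to the Zic1/2 C terminus) guides a nuclease to bound DNA inside nuclei, and the released fragments are sequenced. The cells were cultured cerebellar granule neurons, taken at 1, 3, 5 or 7 days in vitro (DIV1, DIV3, DIV5 and DIV7) with 3 biological replicates each. All cultures share 1 medium, and the labels give 1 uM cytosine arabinoside, an agent that removes dividing cells, at day 2. The DIV1 libraries were therefore collected before that step and the other 9 after it, so time in culture and the agent cannot be told apart between DIV1 and the later days. Strain, sex and age of the animals are not given in the labels used here.

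Wnt ligands are secreted, lipid-modified glycoproteins that bind a Frizzled receptor together with Lrp5 or Lrp6. In the absence of a ligand, a complex built on Axin and Apc marks beta-catenin, the product of Ctnnb1, for degradation, and in its presence beta-catenin reaches the nucleus and joins the Tcf and Lef factors at target genes such as Axin2. In the cerebellum, Wnt7a is known as a granule neuron signal that remodels the mossy fibre axons contacting these cells, and Wnt signalling is one of the pathways that shape progenitor growth and dendrite and synapse formation.

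Each library was a list of peaks, with the summed coverage and the highest coverage (maximum signal) of each peak. The lists held 65102 to 89417 peaks and 1.01 to 3.27 M reads in peaks, with the fewest reads in DIV7 replicate 1, DIV7 replicate 3 and DIV5 replicate 3. Peaks of all libraries that overlapped were merged into 286729 regions, of which 12276 were called in all 12 libraries and 462 touched the 40 genes. A peak in all 12 libraries was found at 9 of 10 granule neuron markers, 5 of 5 granule progenitor markers, 2 of 5 each of the astrocyte and oligodendrocyte lineage markers, 1 of 5 each of the Purkinje cell (Foxp2) and inhibitory interneuron (Gad1) markers, and 0 of 5 microglial markers. The share over all protein-coding genes was 52.6%, and gene length was not taken into account. The other Purkinje cell markers had a peak in 2 (Car8) to 9 libraries (Calb1), and the microglial ones in 1 (P2ry12) to 8 (Tmem119). The summed peak share per 10000 peaks went from 8.44 to 9.13 at DIV1 to 2.46 to 4.91 at DIV7 for progenitor markers, from 4.87 to 5.45 to 1.08 to 1.81 for oligodendrocyte lineage markers and from 2.5 to 3.49 to 0.774 to 1.5 for interneuron markers. In these 3 lists every later library was below every DIV1 library. Purkinje cell markers went the other way, from 0.455 to 0.884 at DIV1 to 0.904 to 0.955 at DIV7. Astrocyte markers at DIV7 lay on both sides of their DIV1 range (1.77 to 2.43). Microglial markers were at 0.303 to 0.442 at DIV1 and at 0 to 0.273 at DIV7. Granule neuron markers ranged from 11.2 to 13.3 at DIV1, from 10.6 to 15.2 at DIV3, from 8.29 to 10.96 at DIV5, and from 6.27 to 10.7 at DIV7. For these markers every DIV5 and DIV7 library was below every DIV1 library. Of 37 marker genes tested for peak share, 8 fell and 0 rose (limma adjusted p under 0.05), against 2.59% and 0.879% of all genes tested, and their part in the results below was not tested.

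The results turn on 4 genes. Wnt7a is the ligand with the most constant regions. Fzd4 is the receptor with the highest mean percentile of the strongest peak among those in the promoter table. Fzd7 is the gene whose rising peak share passed in the main fit, though the call was lost in 17 other settings, given below, and kept in 9. Axin2 is the gene with the most peaks. Their promoters are shown first. Each is the 250 bases before the RefSeq start site (mm10), 5′ to 3′ on the strand of the gene, and capitals mark CAGCNGG, a relaxed form of CAGCAGG, the core of the motif known for Zic proteins, searched on both strands.
Wnt7a, chr6:91411354-91411603, minus strand: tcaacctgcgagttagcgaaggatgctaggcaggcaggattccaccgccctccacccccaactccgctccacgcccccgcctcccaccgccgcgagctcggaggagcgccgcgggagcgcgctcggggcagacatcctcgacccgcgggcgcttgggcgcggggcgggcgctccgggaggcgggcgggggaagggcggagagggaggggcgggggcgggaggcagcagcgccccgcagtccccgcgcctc
Fzd4, chr7:89404116-89404365, plus strand: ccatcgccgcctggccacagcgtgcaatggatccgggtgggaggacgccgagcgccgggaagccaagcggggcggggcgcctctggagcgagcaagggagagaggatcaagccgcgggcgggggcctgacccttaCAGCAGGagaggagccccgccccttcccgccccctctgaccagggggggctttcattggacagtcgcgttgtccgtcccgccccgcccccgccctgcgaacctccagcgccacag
Fzd7, chr1:59481897-59482146, plus strand: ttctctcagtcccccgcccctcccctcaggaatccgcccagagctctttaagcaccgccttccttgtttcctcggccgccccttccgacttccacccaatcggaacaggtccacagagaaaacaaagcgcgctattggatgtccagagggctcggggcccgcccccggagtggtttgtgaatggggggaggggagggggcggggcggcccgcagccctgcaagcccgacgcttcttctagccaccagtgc
Axin2, chr11:108920099-108920348, plus strand: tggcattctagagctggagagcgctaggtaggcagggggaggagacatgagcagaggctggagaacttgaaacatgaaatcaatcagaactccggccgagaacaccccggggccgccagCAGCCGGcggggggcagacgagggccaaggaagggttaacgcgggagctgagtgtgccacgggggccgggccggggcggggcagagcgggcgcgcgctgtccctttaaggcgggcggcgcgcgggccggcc
The Fzd4 promoter held CAGCAGG 115 bases before the start and the Axin2 promoter a CAGCNGG match further upstream than that, while neither form was found in these windows of Wnt7a and Fzd7. Across 21263 RefSeq promoter windows of 250 bases, 8.37% held CAGCAGG and 22.7% held CAGCNGG, so a match is common and is no more than a description. Only 27 of the 40 genes (67.5%) were in the promoter table, too few for a comparison of base composition or motifs over the 40 genes.

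The peak share of a gene group is its number of peaks per 10000 peaks of the library. For the 19 ligands it was 9.86, 11.5 and 11.2 in the DIV1 libraries, 7.32, 6.35 and 7.03 at DIV3, 7.16, 5.53 and 7.00 at DIV5, and 3.69, 7.87 and 9.14 at DIV7. Every DIV1 library lay above every later one, and the lowest value was that of DIV7 replicate 1, the library with the fewest reads. The means were 10.9 ± 0.883 (SD, n = 3) at DIV1 and 6.90 ± 2.85 at DIV7, a change of -36.5%, against -9.20% for all protein-coding genes (6958 ± 164 and 6318 ± 306). The log2 difference of -0.65 came to -0.35 without DIV7 replicate 1. In these bulk cultures, fewer cells with a bound site and less binding per cell cannot be told apart.

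The 12 receptors showed no such drop. Their share was 4.55, 4.04 and 4.27 at DIV1, 5.03, 3.89 and 3.18 at DIV3, 3.69, 3.83 and 4.40 at DIV5, and 5.38, 4.65 and 5.18 at DIV7. The DIV7 values lay above those of DIV1, but DIV3 replicate 1 lay within their range. The difference between DIV7 and DIV1 was 0.24 on the log2 scale. It came to 0.12 without the 3 libraries with the fewest reads, and to 0.03 (an alternative chosen after seeing the data) when each merged region was counted once instead of each peak. The 8 effectors followed another course, with 6.83, 6.54 and 6.63 at DIV1, means of 4.05 ± 0.478 at DIV3 and 4.09 ± 0.758 at DIV5, and 4.61, 6.07 and 6.68 at DIV7, where DIV7 replicate 3 was back at the DIV1 level.

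**Figure D1:**
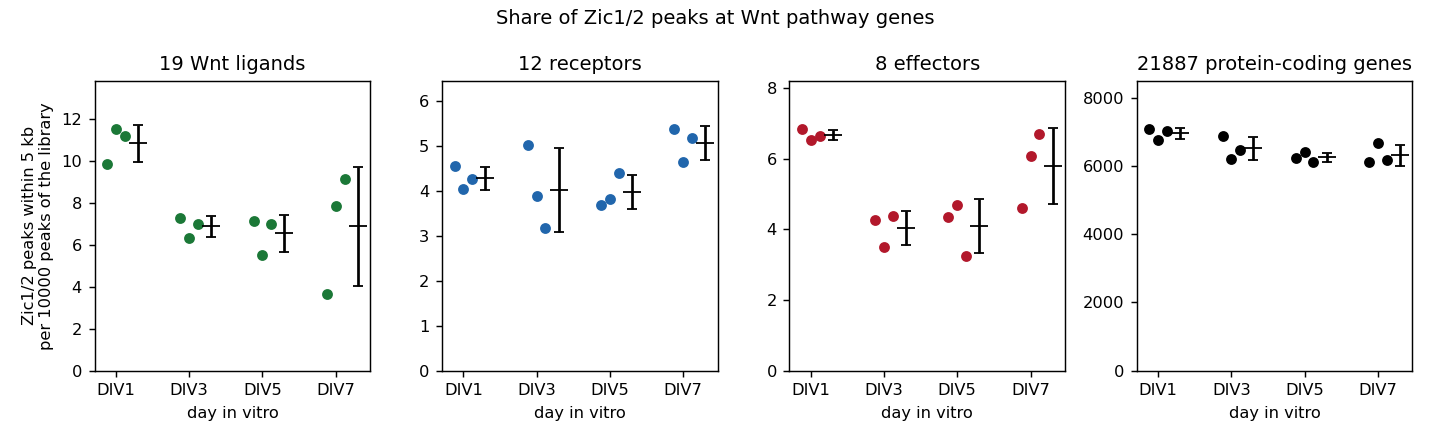
Zic1/2 peaks within 5 kb of the 19 ligands, 12 receptors, 8 effectors and all 21887 protein-coding genes, per 10000 peaks of the library (vertical axis), by day in vitro. Points are libraries and bars the mean ± SD (n = 3); for the ligands the DIV1 libraries (9.86 to 11.5) lie above all later ones (3.69 to 9.14).

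Receptors, ligands and effectors also differed in how strong their best peak was. For each gene the strongest peak was placed as a percentile of maximum signal among all peaks of its library. Genes with no peak in a library were left out of its medians, so 12 to 19 of the 19 ligands entered. The median over receptors was between 83.6 and 93.4 in the 12 libraries, over effectors between 62.9 and 92.4, and over ligands between 51.5 and 72.5. The receptor median was above the ligand median in 12 of 12 libraries and above the effector median in 11, and the effector median was above the ligand median in 10. The median over all protein-coding genes with a peak was 80.4 to 88.7. Ligands lay below it in 12 libraries, receptors above it in 9 and effectors above it in 1. Per Mb of window, receptors had more peaks than effectors in 12 of 12 libraries and more than ligands in 4 of 12. The windows differ in length, with a median of 15.3 kb for receptors, 32.9 kb for ligands and 93.2 kb for effectors.

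**Figure D2:**
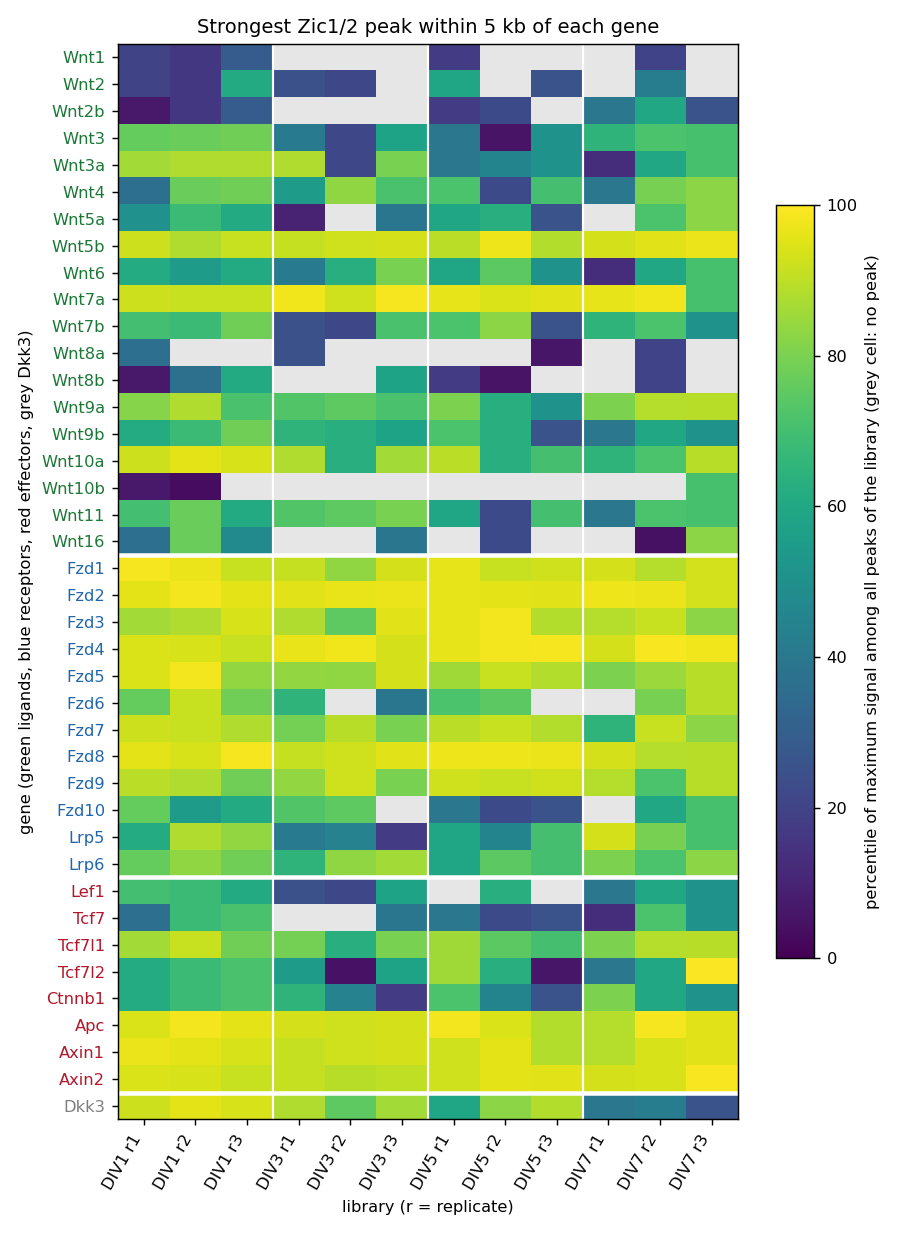
Percentile of maximum signal, among all peaks of the library, of the strongest Zic1/2 peak within 5 kb of each of the 40 genes (rows) in each of the 12 libraries (columns); grey cells have no peak. Fzd2, Fzd4, Fzd8, Apc, Axin1, Axin2 and Wnt5b stay above the percentile of 88 throughout, while Wnt1, Wnt8a and Wnt10b are grey in most libraries.

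A constant region, called in all 12 libraries, was found at 9 of 12 receptors, 4 of 19 ligands and 3 of 8 effectors, together 16 of 40 genes (40%), against 46.1% of all protein-coding genes. A peak of any kind in every library was found at 10 of 12 receptors, 11 of 19 ligands and 6 of 8 effectors, together with Dkk3 28 of 40 genes, against 52.6% of all genes. All 9 constant receptor regions lay within 1 kb of an end of the receptor gene itself. Of the 6 ligand regions 3 did so, and of the 4 effector regions 1. Ends here are the outer bounds of the gene span. The constant region of Axin2, not counted as near an end, covered a RefSeq start inside the span. Gene length differs between these classes. Fzd1, Fzd2, Fzd4, Fzd5, Fzd7, Fzd8 and Fzd9 span 2.11 to 7.19 kb, so a region on them can hardly lie far from an end. Fzd3 (70.0 kb) and Lrp6 (120.4 kb) are longer. The shortest ligand or effector gene with a constant region, Wnt10a, spans 12.2 kb. The part of gene length in this contrast was not tested. Of the 19 constant regions of the 40 genes, 14 (73.7%) lay within 1 kb of some gene end, close to the 69.7% of all constant regions in gene windows. Of the 462 regions, 264 (57.1%) were called in a single library, against 60.5% in the windows of all genes.

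Among the ligands, Wnt7a carried 3 constant regions, at its start (chr6:91410091-91412453), inside the gene about 27161 bases downstream of the start (chr6:91383198-91385187) and past its 3′ end (chr6:91358893-91361398). Its strongest peak reached a percentile of 71.0 to 98.6, and its mean of 93.0 was the highest of the ligands, before 92.6 for Wnt5b. The maximum signal of the start-site region was at a percentile, among constant regions, of 9.60, 57.7 and 62.1 at DIV1, 85.4, 12.7 and 42.5 at DIV3, 46.3, 72.5 and 36.4 at DIV5, and 26.8, 56.4 and 14.0 at DIV7. All days overlapped, with the lowest library at DIV1 and the highest at DIV3. The highest point of the peak lay at positions -466 to 56 relative to the start, with a median of -314.5, so in 10 of 12 libraries it fell outside the promoter bases shown above. In the region inside the gene the reads were 93, 104 and 100 at DIV1, 146, 105 and 113 at DIV3, 84, 48 and 66 at DIV5, and 20, 87 and 9 at DIV7.

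Wnt5b, a ligand best known for signalling without beta-catenin, had the most ligand peaks, with 2 to 16 per library, and 1 constant region inside its span (chr6:119478620-119481572) that also overlaps the gene Fbxl14. Its strongest peak was at a percentile of 88.1 to 97.3. Wnt10a had a constant region at a gene end (chr1:74802518-74804146), and Wnt9a one over its start (chr11:59305530-59308961). Wnt7b, with 1 to 8 peaks per library, had none. At the other extreme, Wnt10b had a peak in 3 libraries, Wnt8a in 4 and Wnt1, the ligand that patterns the midbrain and hindbrain, in 5, with a best percentile of 29.2 for Wnt1. Wnt8b and Wnt16 had a peak in 7 libraries, Wnt2 and Wnt2b in 8 and Wnt5a in 10. Each of the 40 genes had a peak in at least 3 libraries. The windows of Wnt6 and Wnt10a share 1 region and those of Wnt3 and Wnt9b share 4, so these values are not independent.

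Among the receptors, Fzd2 had a strongest peak between the percentiles 93.1 and 98.1, Fzd4 between 91.4 and 99.0, and Fzd8 between 88.7 and 98.8. Fzd4, known as the receptor for norrin in vessels as well as for Wnts, had 1 region over its start (chr7:89403089-89405141), which also overlaps the span of Tmem135. Between 71 and 207 reads fell there per library. Its highest point lay at positions -319 to 38 relative to the start, with a median of -107, near the position of the CAGCAGG shown above, and in 6 of 12 libraries inside those 250 bases. Fzd1, Fzd5 and Fzd9 had a constant region over the start and Fzd2, Fzd3, Fzd8 and Lrp6 one at a gene end, which end not being given in the annotation used. Fzd6, Fzd10 and Lrp5 had none. Fzd6 lacked any peak in 3 libraries and Fzd10, which is known from developing brain, in 2.

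Among the effectors, Axin2, a feedback inhibitor and a widely used readout of beta-catenin signalling, had the most peaks of the 40 genes. The counts were 12, 16 and 13 at DIV1, 12, 9 and 9 at DIV3, 14, 12 and 6 at DIV5, and 5, 10 and 7 at DIV7. Its constant region covered a RefSeq start (chr11:108919798-108922640), with the highest point 113 to 414 bases after that start in all 12 libraries. Apc had 2 constant regions, at a gene end (chr18:34220314-34222433) and inside the gene, and Axin1 had 1 inside its span (chr17:26138027-26139817). The strongest peaks of these 3 scaffold genes of the degradation complex were at percentiles of 88.5 to 98.9. The medians of Apc, Axin1 and Axin2 over libraries were 94.3, 93.7 and 93.8. Those of the transcription factors were lower, at 80.1 for Tcf7l1 (62.9 to 91.5), 60.7 for Tcf7l2, 59.0 for Lef1 (21.7 to 70.0) and 39.4 for Tcf7 (12.9 to 71.7), and that of Ctnnb1 was 60.7 (17.4 to 80.4). Tcf7l2 varied most widely, from 5.07 to 99.6, and its highest value, in DIV7 replicate 3, was above those of the 3 scaffold genes. None of these 5 genes had a constant region, although the start-site regions of Tcf7l1 and Ctnnb1 were called in 11 libraries each.

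**Figure D3:**
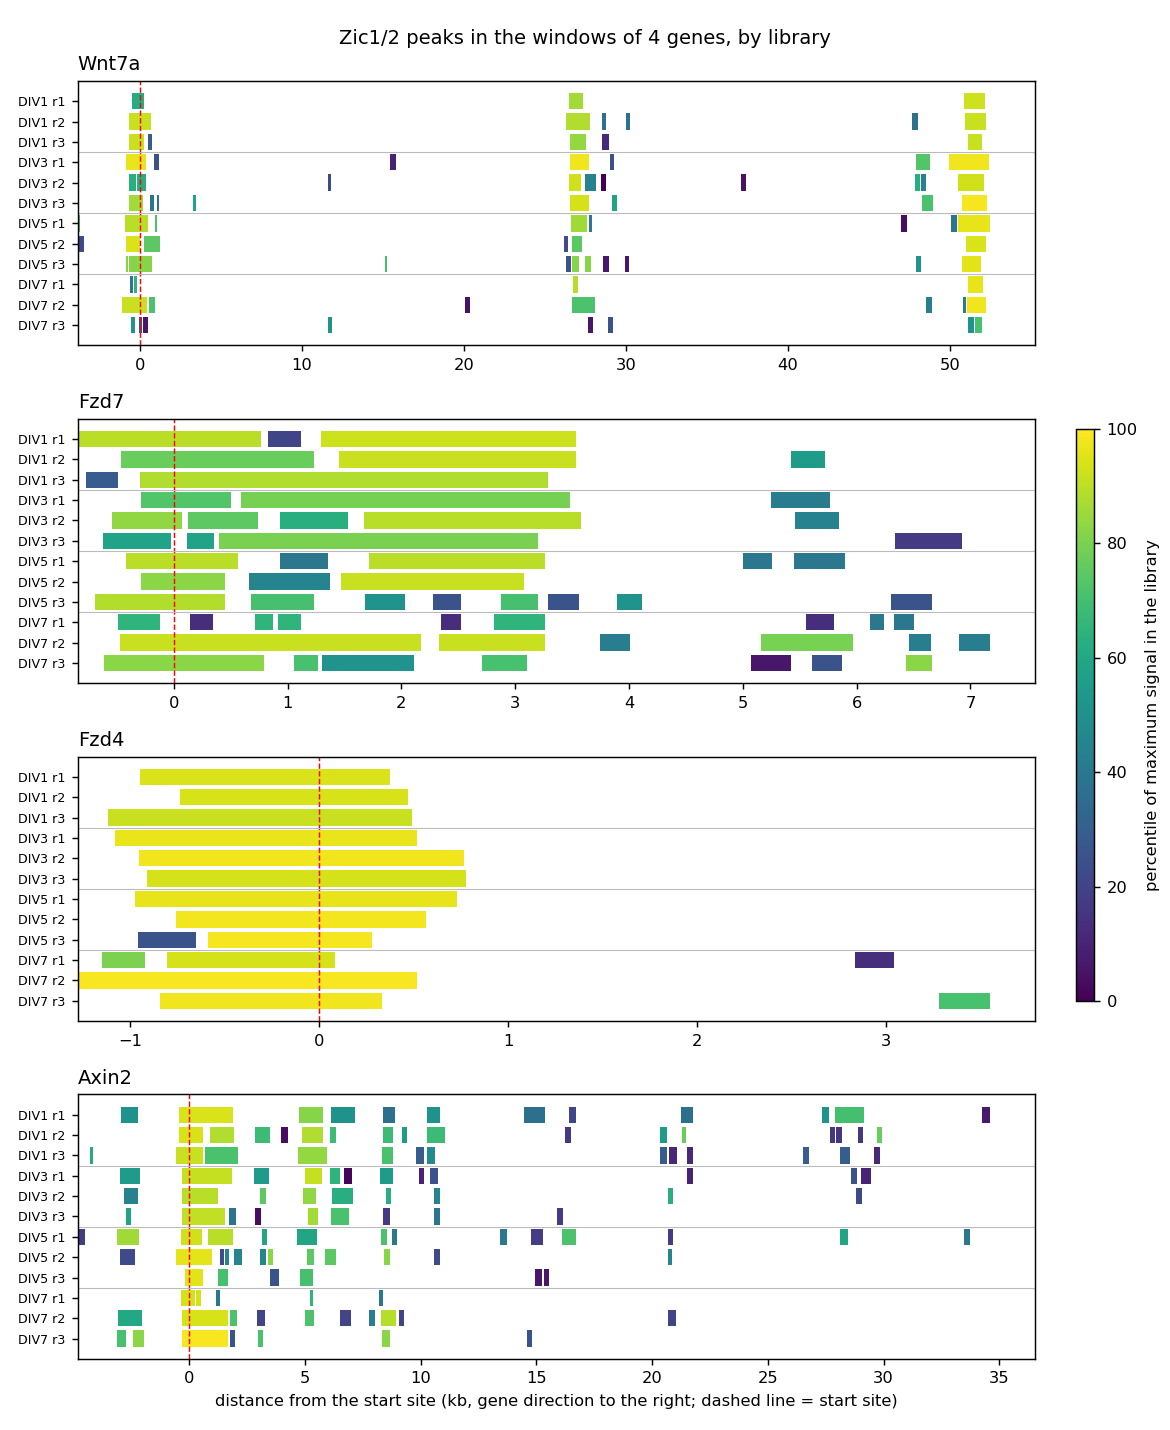
Zic1/2 peaks in the windows of Wnt7a, Fzd7, Fzd4 and Axin2 in each library (rows), as bars by distance from the start site in kb (horizontal axis), coloured by percentile of maximum signal. Fzd4 has a block over its start in every library, listed as 2 peaks in DIV5 replicate 3 and DIV7 replicate 1, Wnt7a has 3 places that are called throughout, and the broad block of Fzd7 is listed as more, narrower peaks in several later libraries.

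Whether binding strength changed with the day was tested at the 12276 constant regions, on ranks of maximum signal within each library (limma, Benjamini-Hochberg over all of them). Of these, 2.04% passed an adjusted p of 0.05 (0.741% rising and 1.3% falling), and 0 of the 19 regions of the Wnt genes did. At an unadjusted p below 0.05 there were 3 of 19 in limma, the 1 tool run, against 16.3% of all constant regions. Of these 3, 1 had a rising and 2 a falling coefficient, where 8.04% and 8.21% of all constant regions did. They were Wnt10a, Fzd4 and the region inside Wnt7a. These regions were picked by a trend over the same libraries, so a separation of days in them adds no support. In the Wnt10a region, the percentile among constant regions was 66.4, 77.4 and 72.4 at DIV1, 51.7, 12.7 and 42.5 at DIV3, 46.3, 9.81 and 20.5 at DIV5, and 26.8, 10.4 and 59.3 at DIV7. All DIV1 libraries were above the other 9, and the change was -0.19 ± 0.07 normal-score units per day (SE; limma adjusted p = 0.215). For Fzd4 the percentiles were 74.6, 68.5 and 62.1 at DIV1, 85.4, 89.0 and 68.5 at DIV3, 78.7, 91.0 and 93.6 at DIV5, and 78.3, 93.9 and 91.5 at DIV7. The DIV7 and DIV5 libraries all lay above DIV1, and the change was 0.13 ± 0.06 per day (limma adjusted p = 0.252). For the Wnt7a region the mean went from 43.0 ± 4.27 at DIV1 through 75.1 ± 12.6 at DIV3 to 25.3 ± 34.6 at DIV7, with DIV3 above DIV1 in all libraries and DIV7 on both sides of it (limma adjusted p = 0.302). Next by p came Wnt5b at 0.10 ± 0.06 among ligands (limma adjusted p = 0.417), Fzd5 at -0.10 ± 0.06 and Fzd8 at -0.08 ± 0.06 among receptors (0.503 and 0.617 by limma), and Axin2 at 0.10 ± 0.06 among effectors (0.458 by limma). Axin1 (-0.04 ± 0.05) and the Apc region inside the gene (-0.01 ± 0.05) lay nearer to 0, with adjusted p-values by limma of 0.795 and 0.976.

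A change of binding strength that passed lay in Dkk3, whose product is a dickkopf-family glycoprotein that, unlike other members, is not an established Lrp inhibitor. The region (chr7:112129572-112130764) lies inside the gene and was called in all libraries but DIV7 replicate 3, so it entered only the fit of regions called in at least 10 libraries. Its percentile of maximum signal among all peaks was 92.3, 95.9 and 94.0 at DIV1, 88.0, 75.3 and 86.0 at DIV3, 58.6, 82.7 and 81.8 at DIV5, and 39.6 and 20.2 at DIV7 replicates 1 and 2. Its reads in called peaks were 95, 97 and 99, then 105, 64 and 75, then 50, 14 and 28, and at DIV7 7 and 18 in replicates 1 and 2. These 2 DIV7 libraries were below all DIV1 and DIV3 libraries on both measures, and DIV7 replicate 3, with no peak listed, took the lowest rank in the fit. Over 21630 such regions 4.48% passed (2.76% falling). Of 33 regions of the Wnt genes this was the 1 that did, so the count is near that background. The region fell by 0.34 ± 0.06 normal-score units per day (SE, limma adjusted p = 0.00809). In settings chosen after seeing the data, it also passed with each library left out (limma adjusted p = 0.00835 to 0.0271), without the 3 libraries with the fewest reads (0.0219) and with reads in peaks (log2) added to the fit (0.0312). Reads were 50 bases long in 6 libraries, none of them from DIV1, and 51 in the other 6, which include all of DIV1. Within the former the adjusted p was 0.491 (limma) and within the latter 0.0788, where 0 of all 21630 regions passed in either. The peak counts of the whole gene did not pass, at -0.08 ± 0.05 log2 per day (limma adjusted p = 0.487).

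The peak share of each gene was tested against the day in the same way over 17413 genes, of which 3.47% passed, 0.879% rising and 2.59% falling. Of the 40 genes 1 passed (2.5%), namely Fzd7, a Frizzled receptor of stem and progenitor cells in several tissues. Its peaks numbered 3, 3 and 2 at DIV1, 3, 5 and 4 at DIV3, 5, 3 and 8 at DIV5, and 9, 6 and 7 at DIV7. Every DIV7 library was above every DIV1 library, and the share rose by 0.20 ± 0.05 log2 per day (SE; limma adjusted p = 0.0354), from 0.369 ± 0.081 to 1.04 ± 0.312 peaks per 10000.

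In values not scaled to the library, the rise in peak number was not matched by more covered sequence in the main block of Fzd7. This broad region over the start and gene body (chr1:59481303-59485724) held 3, 2 and 2 peaks at DIV1 and 6, 2 and 4 at DIV7. The bases covered by these peaks were 4142, 3777 and 3868 at DIV1, 3690, 3739 and 3649 at DIV3, 2956, 3048 and 2895 at DIV5, and 1557, 3574 and 2828 at DIV7. All peaks of a library together covered 41.2, 42.6 and 37.4 Mb at DIV1 and 18.4, 35.9 and 26.4 Mb at DIV7. Covered sequence was thus lower at DIV7 in the whole libraries too. Reads in the region were 399, 305 and 317 at DIV1 and 76, 308 and 161 at DIV7, and its rank among constant regions did not pass (-0.04 ± 0.06 per day, limma adjusted p = 0.801). Outside this block, a region past the 3′ side (chr1:59488452-59489318) was called in 0 of 3 libraries at DIV1, in 1 each at DIV3 and DIV5, and in all 3 at DIV7. With each merged region counted once, the coefficient was 0.17 log2 per day and did not pass (limma adjusted p = 0.0692). The call was also lost without DIV1 replicate 1, 2 or 3 (limma adjusted p = 0.0687, 0.0741 and 0.110), without DIV3 replicate 1 (0.0507) and without DIV7 replicate 1 or 3 (0.107 and 0.0712). It was lost as well without the 3 libraries with the fewest reads (limma adjusted p = 0.350) and when reads in peaks entered the fit (limma adjusted p = 0.706), where 0 of all 17413 genes passed.

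**Figure D4:**
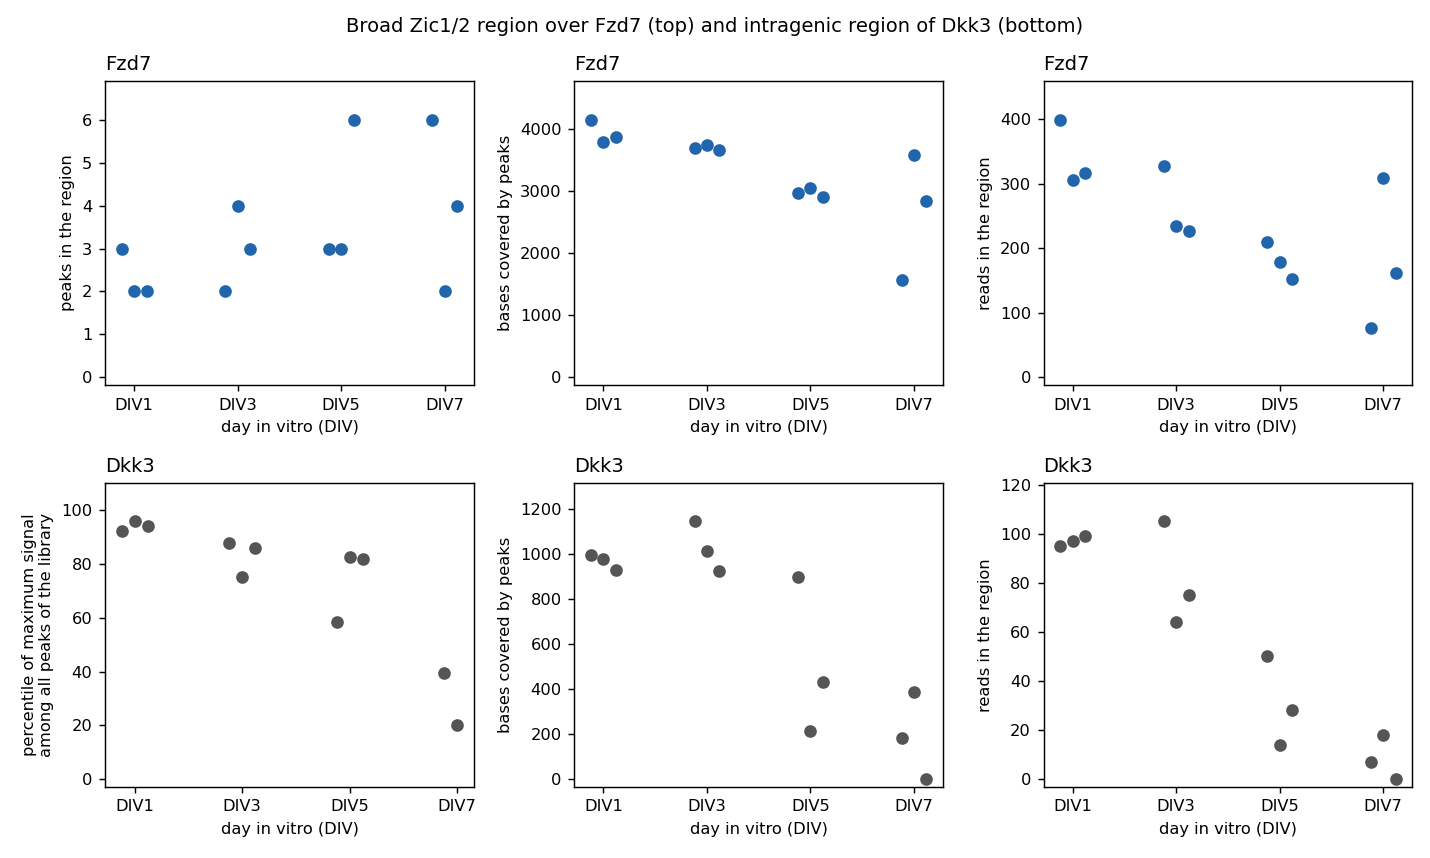
Covered bases and reads are raw values, not scaled to the library. Top, the broad region of Fzd7: peaks, bases covered by peaks and reads per library, by day in vitro. Bottom, the region inside Dkk3: percentile of maximum signal among all peaks of the library (no point where no peak was called), covered bases and reads; points are libraries (3 per day). Covered bases of the Fzd7 block were lower at DIV5 than at DIV1 while its peak number was not, and Dkk3 reads were 95 to 99 at DIV1 and 7 and 18 in the 2 DIV7 libraries with a peak; a point at 0 stands for a library with no listed peak.

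No other gene of the 40 passed. Genes named below for a small p were picked by a trend over the same libraries, so a separation of days in them adds no support. At an unadjusted p below 0.05, 7 genes had a falling share and 1 a rising one, against 11.9% and 6.65% of all genes tested. The coefficient was below 0 for 17 of 19 ligands, 5 of 12 receptors and 4 of 8 effectors, against 52.7% of all genes. The median change was -0.08 log2 per day for ligands, 0.01 for receptors and for effectors, and -0.00452 for all genes. The lowest p among ligands was that of Wnt9b, with 6, 6 and 6 peaks at DIV1, 5, 7 and 4 at DIV3, 5, 4 and 2 at DIV5 and 2, 3 and 4 at DIV7. Each DIV7 library was below each DIV1 library (-0.16 ± 0.05 log2 per day, limma adjusted p = 0.0720). Wnt3a, a ligand that acts through beta-catenin, had 3, 8 and 5 peaks at DIV1 and 1, 2 and 3 at DIV7 (limma adjusted p = 0.132). Wnt11, which is known for polarity signalling, had 6, 6 and 5 and then 1, 4 and 4 (0.135).

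Among the effectors, the Axin2 counts given above came to -0.13 ± 0.05 log2 per day (limma adjusted p = 0.114), and DIV1 (12 to 16) did not overlap DIV7 (5 to 10). Lef1, an activator among the Tcf and Lef factors, had 6, 5 and 6 peaks at DIV1, 1, 2 and 3 at DIV3, 0, 2 and 0 at DIV5 and 1, 4 and 2 at DIV7, all later libraries lying below DIV1 (-0.24 ± 0.10 log2 per day, limma adjusted p = 0.225). Axin1 had 1 to 5 peaks per library (0.07 ± 0.06, limma adjusted p = 0.562). Among the receptors, Fzd8 had 1 to 4 peaks (0.14 ± 0.07, limma adjusted p = 0.290) and Lrp6 1 to 4 (0.09 ± 0.05, limma adjusted p = 0.346). Lrp5 and Fzd3, with Fzd7 the receptors with most peaks, had 1 to 9 and 2 to 4, with adjusted p-values of 0.940 and 0.570 by limma.

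**Figure D5:**
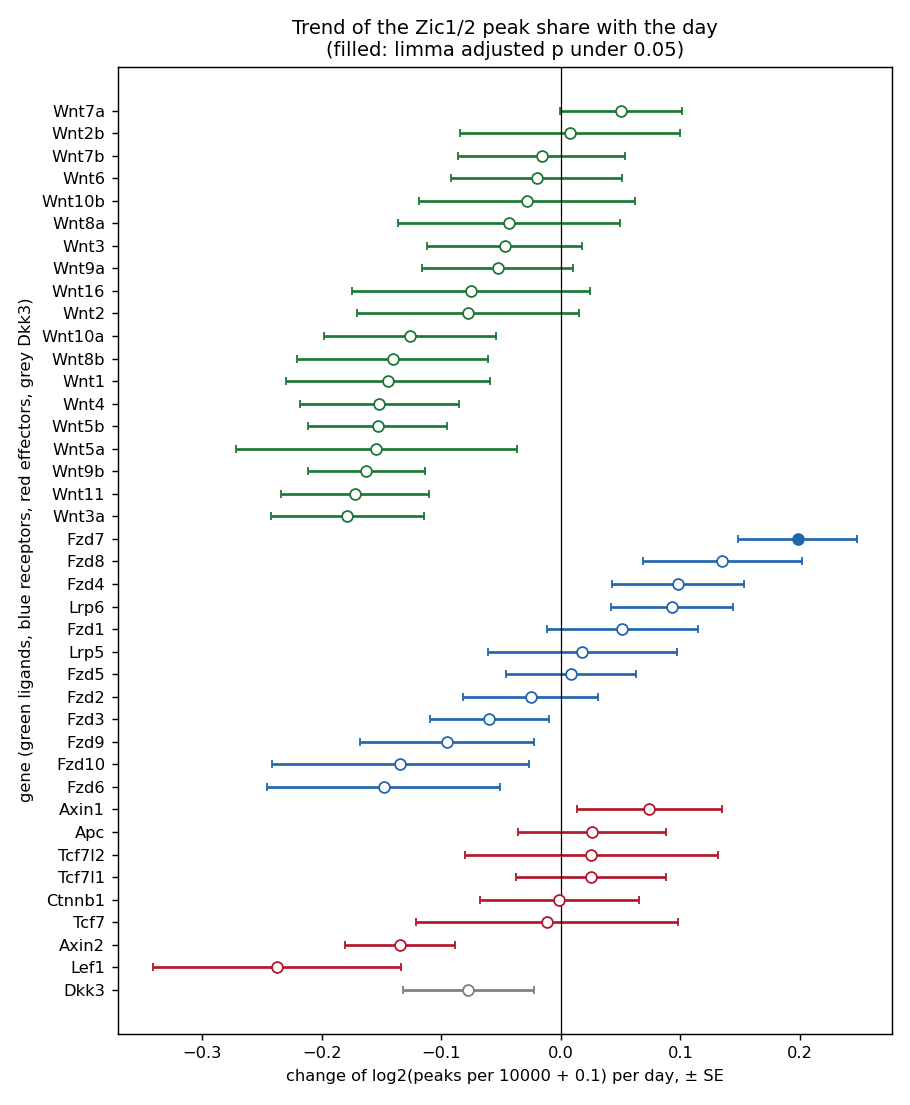
Change per day of log2(peaks per 10000 + 0.1) for each of the 40 genes (points, with SE), from the limma fit over all 17413 genes; ligands green, receptors blue, effectors red, Dkk3 grey. Fzd7 is the only filled point (adjusted p under 0.05), and 17 of 19 ligands lie left of 0.

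Whether a peak was present or not was compared across days with an exact conditional trend test (two-sided) over 52519 regions called in 3 to 9 libraries, of which 0% passed after adjustment. Of these, 102 touched the Wnt genes, and none passed (lowest adjusted exact p = 0.134). At an unadjusted exact p below 0.05, 12 were called more often at early days and 1 at late days. That is 11.8% of 102, the same as the 11.8% of all tested regions in gene windows for the early direction, where the late direction had 1.27%. Over all 52519 regions the shares were 11.1% and 1.87%. The early ones lay in Axin2 (3 regions), Tcf7l1, Wnt5b and Wnt10a (2 each), and Wnt7b, Fzd2 and Dkk3. The lowest p belonged to a region inside Wnt5b (chr6:119437877-119438758), with 33, 15 and 36 reads at DIV1, 18, 30 and 25 at DIV3 and no peak at DIV5 or DIV7 (exact p = 0.00216, adjusted 0.134). A region inside Axin2 (chr11:108930622-108931401) was called in 3, 3, 1 and 0 libraries at DIV1, DIV3, DIV5 and DIV7, and 1 inside Tcf7l1 (chr6:72630784-72632411), a mostly repressive Tcf factor, in 3, 3, 2 and 0. By unadjusted exact p both were more often called early, and neither passed after adjustment. The late one was the 3′ region of Fzd7 given above.

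The wider pathway was read from 79 other genes, of which 76 were tested for peak share. Of these, 3 fell and 0 rose, where 2.59% of all genes tested fell and 0.879% rose, so the count is near the background. The 3 were Prickle2 and Celsr1, components of the planar polarity branch, and Nkd1, which binds Dishevelled and limits the signal. Prickle2 had 23, 25 and 21 peaks at DIV1 and 7, 13 and 7 at DIV7 (-0.22 ± 0.04 log2 per day, limma adjusted p = 0.00478). Nkd1 had 23, 19 and 19 and then 4, 10 and 10 (limma adjusted p = 0.0146), and Celsr1 had 14, 22 and 11 and then 5, 7 and 3 (limma adjusted p = 0.0148). In all 3 genes the DIV1 libraries did not overlap those of DIV7. These genes were picked by a trend over the same libraries, so this adds no support. With reads in peaks in the fit, none of the 3 passed, as no gene of the table did. Of 72 constant regions of these genes 1 fell and 0 rose, near the 1.3% and 0.741% of all constant regions. It lay inside Celsr2 (chr3:108408898-108412573), where the percentile was 86.5, 68.5 and 50.5 at DIV1 and 10.4, 19.9 and 0.680 at DIV7 (limma adjusted p = 0.0131). None of the 16 secreted inhibitors and potentiators tested and none of the 12 nuclear cofactors passed by peak share. At an unadjusted p below 0.05 in limma, 1 and 3 of them had a falling coefficient, against 11.9% of all genes tested. Over all 76 genes 12 fell and 0 rose at that level. Of 209 regions of these genes tested for presence, 0 passed after adjustment. At an unadjusted exact p below 0.05, 41 were called more often early and 0 late, where 11.8% and 1.27% of tested regions in gene windows were. By group this ranged from 6 of 56 (ligand maturation and membrane partners) to 13 of 33 (nuclear cofactors). The cause was not tested.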

How the data were processed

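The 12 libraries (4 days, 3 biological replicates each) were deposited as 1 peak list per library in mm10 coordinates, in the format of a stringent SEACR list. For each peak the authors' file gives total signal (summed coverage) and maximum signal (highest coverage), not scaled to depth. Per the submitters' processing notes, the tools include SEACR 1.3 and MACS2 2.1, STAR 2.7.2b, Trimmomatic 0.38 and FastQC, besides DESeq2 1.36.0 and bedtools 2.25.0. Which step each ran, the control and threshold for peaks, and duplicate removal were not given in the sources used here. Total signal was a whole multiple of 51 in 6 libraries and of 50 in the other 6, and was divided by that read length to give reads. Maximum signal went no higher than 102 or 100, so the strongest peaks tie, and ranks within a library were used. Replicates of a day correlated at a Spearman rho of 0.525 to 0.707 in maximum signal over constant regions. No peak is listed without reaching the caller's threshold, so a missing peak is not a measured absence.

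Peaks overlapping by at least 1 bp were merged into regions. Gene spans, start sites and promoter sequences came from RefSeq GRCm38.p6, the assembly of mm10; the promoter table did not hold 13 of the 40 genes, and sequences from chromosome 18 were not used. Trends took day in vitro as a number and were fitted with limma 3.58.1 in R 4.3.3, on normal scores of ranked maximum signal (12276 regions called in all libraries) and on log2(peaks per 10000 + 0.1) (17413 genes with a peak in at least 3 libraries), so folds of genes with few peaks are understated. Presence was tested with an exact conditional trend test. P-values were adjusted by Benjamini-Hochberg over each whole table, with a threshold of 0.05. The fits were also run on simulated data with independent noise and known slopes. These data held no trend of depth or read length with the day, so they cannot speak to either. Other steps used Python 3.11.15, pandas 2.3.3, numpy 2.4.6, SciPy 1.17.1 and matplotlib 3.10.9.

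Genes named with values were those that passed a test, and in each class the 3 with the highest mean peak share, the 3 with the highest mean percentile of the strongest peak, and the 3 with the smallest p in each trend; Dkk3 was always named. Other genes are named as examples, with values seen. The 40 genes and all lists were chosen with earlier results of these data known. Alternatives covered depth, read length, pairing, windows, filters, scaling and left-out libraries.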

Additional observations from a re-analysis of the deposited data

How the results depend on the processing

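The number of the 40 genes whose peak share passed was 1 (Fzd7) of 604 in the whole table. It was 0 without the 3 libraries with the fewest reads, with reads in peaks in the fit, with a term for read length, within either read length (50 or 51 bases), without a filter, with the gene span alone, with the stronger peaks alone (those above the library's median of total signal), and with occupied regions in place of peaks (chosen after seeing the data). It was 2 with 20 kb on each side (Axin2 and Wnt9b) and 3 with summed signal scaled to its library total (Dkk3, Fzd4 and Wnt5b), and 0 to 1 with each library left out. The cause was not tested. Of all genes tested 1329 passed with summed signal, 23 without the 3 libraries, and 0 with reads in peaks in the fit or within either read length.

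Of constant regions, 0 of the Wnt genes passed in all settings but that of at least 10 libraries, where 1 did (Dkk3), as that table admits regions missing from some libraries. Of all constant regions 251 were called, against 970 in that setting, 923 by total signal, 9 with reads in peaks in the fit and 0 within either read length.

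Signs turned for the Fzd8 peak share without the 3 libraries (-0.0086 log2 per day) and for Axin1 in that setting (-0.021), with 20 kb (-0.0024) and with the stronger peaks (-0.024). By total signal the Wnt5b region came to -0.095 and the Axin1 region to 0.039. The Apc region, near 0, came to 0.023 without the 3 libraries, 0.030 with reads in peaks in the fit, 0.028 within 50-base libraries, 0.0050 with centred log2 signal, 0.0021 over regions of at least 10 libraries, and -0.015 to 0.0070 with each library left out. None of these passed, and the cause was not tested.

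The receptor difference between DIV7 and DIV1 of 0.24 (log2) was 0.12 without the 3 libraries, 0.035 with the gene span alone or covered bases, and 0.027 with occupied regions. The ligand difference of -0.65 ranged from -0.91 to -0.35 with each library left out, -0.35 being without DIV7 replicate 1. Regions more often called early (12 at an unadjusted exact p below 0.05) numbered 5 with the stronger peaks; those called late numbered 0 to 2 in all settings.

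Replicate numbers are shared across days, but same-numbered libraries deviated together with correlations of only -0.090 to 0.14 over 18 pairs, and 6 of 12 libraries were closest to their own number. With the replicate number as a block, 0 regions and 1 gene of the 40 passed (Fzd7, limma adjusted p = 0.0454), with 186 regions and 586 genes in the tables. Reads in peaks ranged from 1.01 M (DIV7 replicate 1) to 3.27 M, and the part of depth in the counts was not tested beyond the settings above.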
